A study of Nicotiana benthamiana with 8 samples.

Results

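The CYP86 family was described here in leaves of Nicotiana benthamiana that transiently expressed MdMYB68, an apple MYB transcription factor. A contig of the deposited table was taken as a CYP86 contig when its annotation named cytochrome P450 family 86, or when its closest Arabidopsis symbol was CYP86A1, CYP86A8 or CYP86B1. This gave 20 of the 3305 contigs listed. Of these, 9 were annotated as CYP86A1, 7 carried the symbol CYP86A8 and 4 were annotated as CYP86B1. The labels did not always match each other. All 7 CYP86A8 contigs were annotated as cytochrome P450 86A2, a close relative of CYP86A8 in Arabidopsis, so these contigs may stand for either gene and are called CYP86A8 only by their symbol. Of the 4 contigs annotated as CYP86B1, Nbv5tr6223807 and Nbv5tr6216693 carried the symbol CYP96A10, and 3 of the 9 CYP86A1 contigs had the annotation but no symbol.

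CYP86 enzymes are membrane-bound cytochrome P450s that add a hydroxyl group to the last carbon of a fatty acid, the omega position. The omega-hydroxy acids they make, and the dicarboxylic acids formed from these, are main building blocks of the lipid polyesters cutin and suberin. In Arabidopsis, CYP86A1 acts on long-chain fatty acids for root suberin, CYP86B1 acts on very-long-chain acids for root and seed coat suberin, and CYP86A8 and CYP86A2 are known from the cuticle of aerial organs. Mature leaf tissue carries cutin on its epidermis and has little suberin.

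All plants were 4 weeks old, and all leaves were infiltrated with Agrobacterium tumefaciens strain GV3101-pMP90. In both groups the mixture held pBIN61-p19, which encodes the viral silencing suppressor p19. The MdMYB68 leaves also received MD08G1076200 in pEarleyGate103, under the CaMV35S promoter and fused to GFP, while the control leaves received that vector empty. Each group had 4 libraries, each a pool of 3 plants with 4 infiltrated leaves per plant, collected 4 days after infiltration. The apple factor was thus driven by a strong constitutive promoter in leaf cells, not in a tissue that normally makes suberin.

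The study designed RT-qPCR primers on Nbv5tr6408715, the CYP86A1 contig with the symbol that had most reads. They are shown because the study names this contig for its RT-qPCR assay, and they are the member sequences used here. Whether they also match other CYP86A1 contigs was not tested. They are written from the 5′ end, and no base is marked by capitals.

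Left primer: agggaccgaagggtacagac

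Right primer: ggagcgtcatgaacaatcg

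The 8 libraries had 29371282 to 34080202 mapped reads, and the listed contigs took 6.92 to 8.76% of these in the control group and 17.5 to 18.7% in the MdMYB68 group. Libraries of a group differed by more than sampling noise in every pair. The listed contigs are those that passed the authors' cut-offs on these same libraries, a change of at least 4-fold and 5 RPKM (reads per kb of contig per 1000000 reads mapped to the transcript set), so every test here repeats a selection and is not independent evidence of a difference. The infiltrated MD08G1076200 transcript itself was not analysed here. Leaf identity was visible in all 8 libraries, where each of 44 listed contigs for chlorophyll a-b binding proteins and the small subunit of Rubisco had reads. In the edgeR fit all 44 had a negative log2 fold change and 43 were called lower with MdMYB68 at an adjusted p under 0.001, where 12.4% of the 3305 listed contigs were called lower, and their summed level was 22223 to 32674 RPM (reads per 1000000 mapped reads) with the empty vector and 5066 to 8002 with MdMYB68. In bulk leaf RNA, fewer cells of a type and less RNA per cell cannot be told apart.

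All 20 CYP86 contigs were higher in leaves expressing MdMYB68. With total gene reads, all mapped reads as library size and edgeR's quasi-likelihood test, each passed an adjusted p under 0.001 (Benjamini-Hochberg over the 3305 contigs). The background of this call was high, since 95.9% of the listed contigs were called in either direction and 83.4% were called higher. On uniquely placed reads 18 of the 20 contigs could be tested and 16 were called higher, where the background was 80.3%. The RPKM of the groups did not overlap for any of the 20 contigs, which held for 100% of the listed contigs in either direction and for 85.9% with MdMYB68 higher. As a description, the median log2 fold change was 6.49 over the 20 contigs and 3.34 over all listed contigs. By subfamily the medians were 6.81 for CYP86A1, 6.07 for CYP86B1 and 4.56 for CYP86A8.

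**Figure D1:**
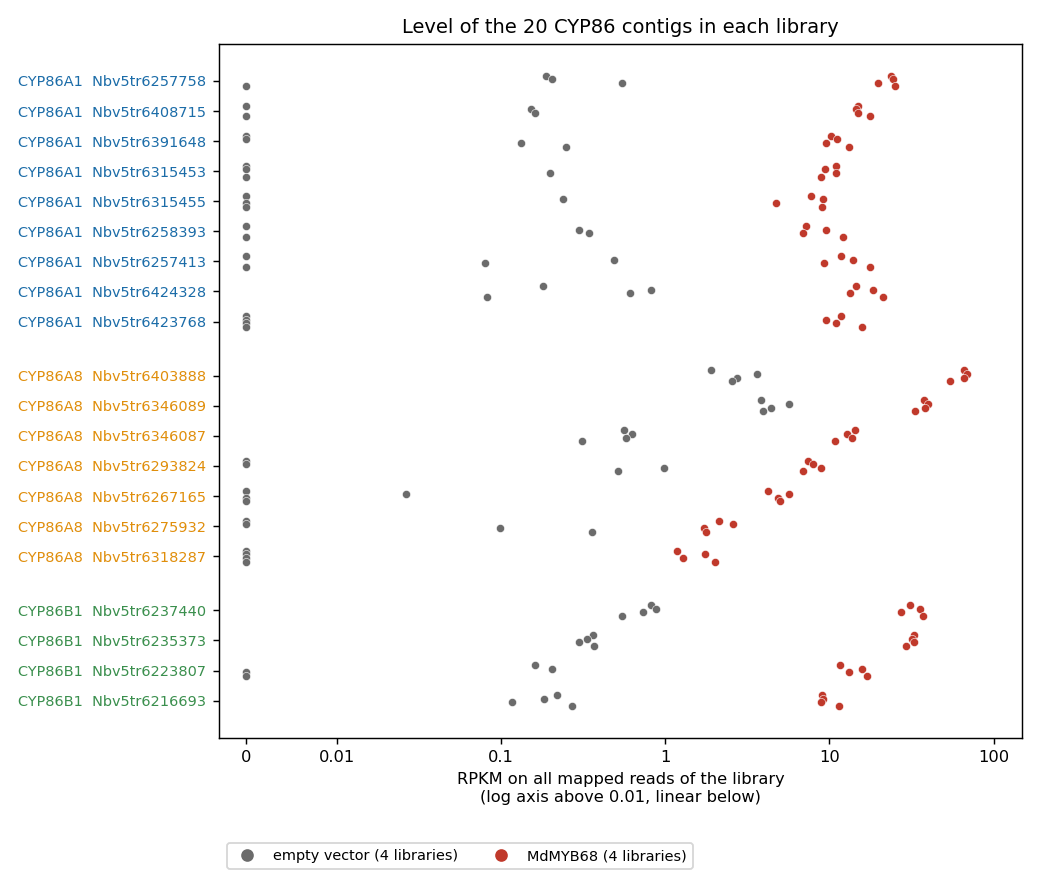
Level of each of the 20 CYP86 contigs (rows, grouped by subfamily) in each library, as RPKM on all mapped reads, on a log axis that is linear below 0.01. Grey points are the 4 empty vector libraries and red points the 4 MdMYB68 libraries; the groups do not overlap in any row, and zeros occur only with the empty vector.

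Summed over the family, CYP86 contigs had 16.8, 26.6, 23.9 and 19.3 RPM in the 4 empty vector libraries. They had 587, 623, 571 and 592 RPM in the 4 MdMYB68 libraries. The means were 21.7 ± 4.43 and 593 ± 22.0 RPM (SD, n = 4), a 27.4-fold difference. With MdMYB68 all 20 contigs had reads in every library, whereas 9, 14, 15 and 10 of them had any read in empty vector libraries 1 to 4. A contig listed as higher must have reads with MdMYB68 but need not have any in the controls, so this contrast follows from the cut-offs. No control read at all was found for 2 of the 20 contigs, and for 179 of the 3305 listed contigs.

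The listed contigs of CYP86A1, the omega-hydroxylase of long-chain acids in Arabidopsis root suberin, were close to the detection limit in control leaves. A CYP86A1 contig that did not pass the authors' cut-offs would not be seen here. The sum of the 9 contigs was 0.409, 2.25, 2.69 and 0.465 RPM with the empty vector. It was 153, 161, 136 and 180 RPM with MdMYB68. The lowest MdMYB68 library was far above the highest control, and within the controls libraries 2 and 3 lay above libraries 1 and 4. The difference of the mean log2 sums, with 0.5 reads added, was 7.21 ± 0.72 (SE, n = 4), or 148-fold. As a ratio of mean RPM, the measure used for the whole family above, the CYP86A1 sum differed 109-fold. The folds of the CYP86B1 and CYP86A8 sums and of the ratios below are also from mean log2 values. A two-sided exact permutation test gave p = 0.029, the smallest p that 4 libraries against 4 allow. Every listed contig separated the groups and all CYP86 contigs were higher, so this p follows from the selection. The same holds for the CYP86B1 and CYP86A8 sums below.

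Nbv5tr6408715, the contig of the primers above, had 0, 9, 9 and 0 reads in empty vector libraries 1 to 4. It had 877, 926, 872 and 1066 reads in the MdMYB68 libraries. Its level was 0.0777 ± 0.0898 and 15.5 ± 1.48 RPKM on all mapped reads (SD, n = 4), and the log2 fold change was 7.60 ± 0.55 (SE, adjusted p = 2.7e-07, edgeR). Of its reads, 19.3% were placed on this contig only. The uniquely placed reads gave a log2 fold change of 6.34, resting on 8 reads in the controls.

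Nbv5tr6257758, annotated as CYP86A1 without a symbol, had the most reads of the 9. They numbered 10, 12, 30 and 0 with the empty vector and 1377, 1519, 1122 and 1470 with MdMYB68. Its log2 fold change was 6.64 ± 0.53 (SE, adjusted p = 5.4e-07, edgeR), and 7.47 without empty vector replicate 3. On uniquely placed reads it was 5.42, resting on 4 control reads. Only 3.68% of its reads were uniquely placed, so most of them were also matched by another contig.

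Nbv5tr6315453 and Nbv5tr6315455 had the same length, 1836 bases, and neither had a uniquely placed read. How their reads were divided, between them or with further contigs, could not be told. Their sum is given as a description and may also hold reads shared with further contigs. The sum was 0, 14, 11 and 0 reads with the empty vector and 1086, 1160, 897 and 1061 with MdMYB68, without overlap. All control reads of Nbv5tr6315453 came from replicate 3 and all those of Nbv5tr6315455 from replicate 2, so that their log2 fold changes of 7.63 and 6.92 each rest on a single control library. The remaining full or partial CYP86A1 contigs showed the same direction. Nbv5tr6391648, Nbv5tr6257413, Nbv5tr6258393 and Nbv5tr6424328 had log2 fold changes of 6.81, 6.45, 5.78 and 5.28. Leaving out the control with most of their reads moved the first 3 to 7.91 (without replicate 4), 8.72 (without replicate 2) and 6.42 (without replicate 3). The call of Nbv5tr6391648 rests on shared reads, since it had 6 uniquely placed reads in all MdMYB68 libraries and 0 in the controls, and its adjusted p was 0.073 on these.

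Nbv5tr6423768, a short contig of 340 bases annotated as CYP86A1, was without reads in all 4 control libraries. It had 127, 111, 116 and 174 reads in the MdMYB68 libraries. Taking 3 reads over the control group as the floor, it was at least 169-fold higher, a bound that covers counting error only.

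CYP86B1, the enzyme of very-long-chain omega-hydroxy acids in Arabidopsis suberin, had the steadiest values. The 4 contigs summed to 2.83, 2.88, 2.09 and 2.14 RPM with the empty vector. They summed to 151, 165, 147 and 170 RPM with MdMYB68. The log2 difference was 6.0 ± 0.13 (SE, n = 4), or 64.0-fold (two-sided exact permutation test, p = 0.029). Control reads were present in every library, so that this change does not rest on zeros.

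Nbv5tr6235373 and Nbv5tr6237440 are the contigs with the symbol CYP86B1. Nbv5tr6235373 had 19, 19, 16 and 21 reads with the empty vector and 1842, 1925, 1835 and 1684 with MdMYB68. Its log2 fold change of 6.53 ± 0.14 (SE, adjusted p = 2.2e-10, edgeR) had the smallest standard error of the 20 contigs. Nbv5tr6237440 had 45, 52, 41 and 33 reads with the empty vector and 1822, 2262, 1596 and 2242 with MdMYB68, and its log2 fold change was 5.46 ± 0.19 (SE, adjusted p = 1.4e-09, edgeR). Both had over 97% of their reads placed uniquely, at 97.8% and 97.9%. The pair reached a like level with MdMYB68, 31.6 ± 1.63 and 32.8 ± 4.52 RPKM on all mapped reads (SD, n = 4), from control levels of 0.340 and 0.742. The ratio of Nbv5tr6235373 to Nbv5tr6237440 reads was 0.365 to 0.636 in the control libraries and 0.751 to 1.15 in the MdMYB68 libraries, a pair that was chosen after its values were seen and is not tested.

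The contigs annotated as CYP86B1 with the symbol CYP96A10 moved in the same direction. Nbv5tr6223807 had 8, 11, 0 and 0 reads with the empty vector and 619, 910, 694 and 918 with MdMYB68, a log2 fold change of 7.27 ± 0.60 (SE, adjusted p = 7.5e-07, edgeR) that was 8.05 without empty vector replicate 2. Nbv5tr6216693 had 11, 10, 6 and 15 reads and then 494, 536, 481 and 637, a log2 fold change of 5.60 ± 0.26 (SE, adjusted p = 1.1e-08, edgeR). They were the lowest of the 4 in level with MdMYB68. Without them the CYP86B1 sum changed by 5.88 on the log2 scale, against 6.0 with them.

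As a sum, the CYP86A8 contigs, of the cutin-related branch, were already expressed in control leaves, although only 3 of the 7 had reads in every control library. Their sum was 13.6, 21.5, 19.1 and 16.7 RPM with the empty vector, and 283, 297, 287 and 242 with MdMYB68. The log2 difference was 3.98 ± 0.16 (SE, n = 4), or 15.8-fold (two-sided exact permutation test, p = 0.029). In total reads of control leaves the CYP86A8 sum exceeded that of CYP86A1 and of CYP86B1 in every library. Uniquely placed reads gave another order for CYP86B1. They numbered 76, 83, 63 and 68 for CYP86B1 in empty vector libraries 1 to 4, and 63, 70, 79 and 52 for CYP86A8.

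Nbv5tr6403888 and Nbv5tr6346089 carried most of these reads. Nbv5tr6403888 had 118, 247, 176 and 175 reads with the empty vector and 4442, 4992, 4385 and 3710 with MdMYB68, the highest level of the family. Its log2 fold change was 4.56 ± 0.20 (SE, adjusted p = 7.9e-09, edgeR). Nbv5tr6346089 was the most read CYP86 contig in control leaves, with 245, 396, 288 and 277 reads against 2595, 2967, 2607 and 2319 with MdMYB68. Its log2 fold change of 3.06 ± 0.15 (SE, adjusted p = 1.5e-08, edgeR) was the smallest of the 20 contigs, and the only one below the median of the listed contigs. In total reads the order of these contigs turned. Nbv5tr6403888 had 0.482 to 0.632 reads per read of Nbv5tr6346089 in the controls and 1.60 to 1.71 with MdMYB68, a pair again picked after its values were seen. Only 13.4% and 8.89% of their reads were uniquely placed, and the uniquely placed reads gave log2 fold changes of 4.45 and 3.46. In these reads no turn was seen over the group, since Nbv5tr6403888 had 102 and Nbv5tr6346089 82 in the controls together, and 2336 and 958 with MdMYB68.

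Nbv5tr6346087 had the largest uniquely placed share of the CYP86A8 contigs, 55.7%. Its reads were 36, 44, 38 and 22 with the empty vector and 999, 959, 950 and 770 with MdMYB68. The log2 fold change was 4.65 ± 0.23 (SE, adjusted p = 1.5e-08, edgeR), and 4.64 on uniquely placed reads.

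Nbv5tr6293824 and Nbv5tr6275932 had uneven controls. Nbv5tr6293824 had 0, 0, 68 and 38 reads with the empty vector and 538, 618, 630 and 511 with MdMYB68. Nbv5tr6275932 had 0, 0, 7 and 27 reads and then 159, 207, 126 and 133. For each, controls 1 and 2 had no read while controls 3 and 4 did. The log2 fold changes were 4.37 ± 0.91 and 4.13 ± 0.85 (SE), with the largest adjusted p of the family, 8.5e-04 and 7.5e-04 (edgeR). Leaving out any MdMYB68 library, or empty vector replicate 4 for Nbv5tr6293824 and replicate 3 for Nbv5tr6275932, put the adjusted p above 0.001, at 0.0023 to 0.0037. Without the control library that had most of their reads, replicate 3 for Nbv5tr6293824 and replicate 4 for Nbv5tr6275932, the log2 fold changes were 5.46 and 5.90. Only 0.624% of the Nbv5tr6293824 reads were uniquely placed, with 0 in the controls, and on these its adjusted p was 0.0060 (edgeR), above the threshold.

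The last CYP86A8 contigs were almost unread in control leaves. Nbv5tr6267165 had 0, 1, 0 and 0 reads with the empty vector and 160, 230, 181 and 192 with MdMYB68. The ratio of the group totals per mapped read was 731, with a 95% exact Clopper-Pearson counting interval of 131 to 28902. Nbv5tr6318287 had no read in the 4 control libraries and 88, 141, 95 and 153 with MdMYB68, which is at least 152-fold higher with the same floor. With MdMYB68 these contigs reached 4.93 and 1.55 RPKM on all mapped reads, and together with Nbv5tr6275932 they were the lowest of the CYP86A8 contigs in either group.

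**Figure D2:**
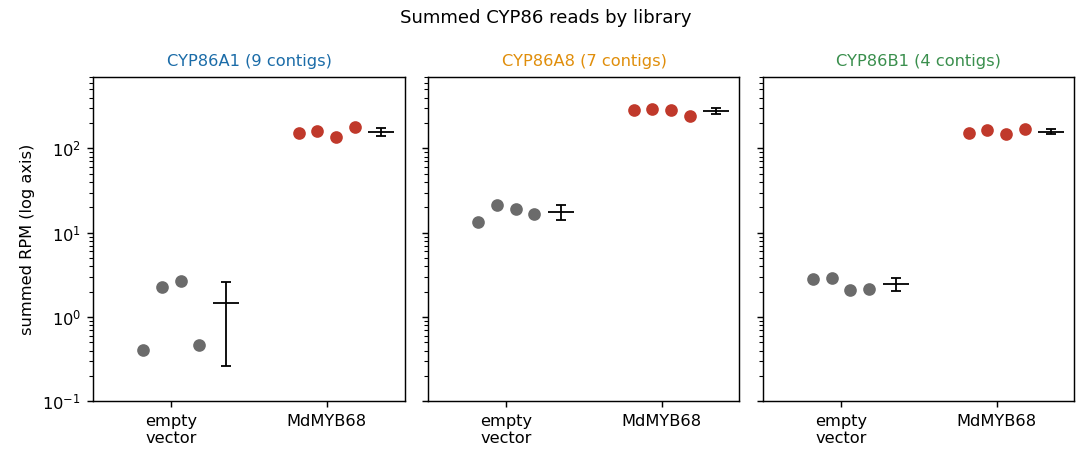
Summed RPM (log axis) of the 9 CYP86A1, 7 CYP86A8 and 4 CYP86B1 contigs, with a point per library and the mean and SD of 4 libraries in black. CYP86A1 went from 0.409 to 2.69 up to 136 to 180 RPM, CYP86A8 from 13.6 to 21.5 up to 242 to 297, and CYP86B1 from 2.09 to 2.88 up to 147 to 170.

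Whether the sums of the listed contigs of each subfamily changed by the same factor was tested with ratios inside each library. These ratios do not depend on the library size or its scaling. The CYP86A1 to CYP86A8 ratio was 0.0301, 0.105, 0.140 and 0.0278 in the controls and 0.541, 0.543, 0.473 and 0.746 with MdMYB68. It was higher in all 4 MdMYB68 libraries, by 3.23 ± 0.61 on the log2 scale (SE, n = 4) or 9.39-fold, with p = 0.029 in a two-sided exact permutation test and 0.043 after Benjamini-Hochberg adjustment over the 3 ratios. The CYP86B1 to CYP86A8 ratio was 0.208, 0.134, 0.109 and 0.128 in the controls and 0.532, 0.557, 0.513 and 0.704 with MdMYB68. It was likewise higher in all 4 libraries, by 2.02 ± 0.22 on the log2 scale (SE, n = 4) or 4.05-fold, with p = 0.029 in the exact permutation test and an adjusted p of 0.043. As sums of listed contigs, CYP86A1 and CYP86B1 thus each changed by a larger factor than CYP86A8. Most reads of the CYP86A8 sum came from Nbv5tr6403888 and Nbv5tr6346089, with log2 fold changes of 4.56 and 3.06. Single CYP86A8 contigs changed more, Nbv5tr6267165 by 8.94 and Nbv5tr6318287 by at least 7.25. All these contigs had passed the authors' cut-offs on the same libraries, and the part of that selection in the ratios was not tested.

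The CYP86A1 to CYP86B1 ratio did not separate the groups. It ranged from 0.145 to 1.29 in the controls and from 0.922 to 1.06 with MdMYB68. The log2 difference was 1.21 ± 0.73 (SE, n = 4), with p = 0.257 in the two-sided exact permutation test. Without empty vector replicate 3, where the CYP86A1 sum was highest among controls, the difference was 1.74 (exact permutation test, p = 0.029), so the outcome depended on that library.

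**Figure D3:**
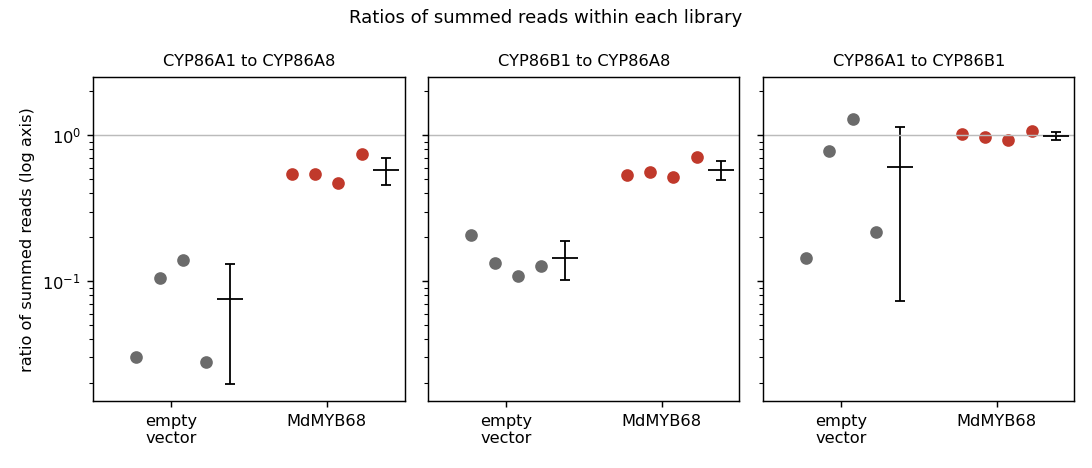
Ratio of summed reads of 2 CYP86 subfamilies within each library (log axis), a point per library with the mean and SD of 4 libraries in black. The CYP86A1 to CYP86A8 and CYP86B1 to CYP86A8 ratios were higher in all 4 MdMYB68 libraries, while the CYP86A1 to CYP86B1 ratio of the controls, 0.145 to 1.29, overlapped with that of the MdMYB68 libraries, 0.922 to 1.06.

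The make-up of the CYP86 reads shifted accordingly. CYP86A8 held 82.0% ± 3.02 of them with the empty vector and 46.8% ± 4.13 with MdMYB68 (SD, n = 4). The CYP86A1 share was 6.13% ± 4.43 and 26.6% ± 2.80, and the CYP86B1 share was 11.9% ± 3.46 and 26.7% ± 1.41. Among uniquely placed reads alone the CYP86A8 share was 45.2% ± 4.64 and 22.1% ± 2.47, the CYP86B1 share was 50.1% ± 6.84 and 70.1% ± 1.48, and the CYP86A1 shares overlapped between the groups. The levels of the subfamilies in this count depend on how many reads are shared, because CYP86A1 contigs had a median of 3.68% uniquely placed reads, CYP86A8 contigs 13.4% and CYP86B1 contigs 97.7%. The fall of the CYP86A8 share was seen with either kind of read.

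**Figure D4:**
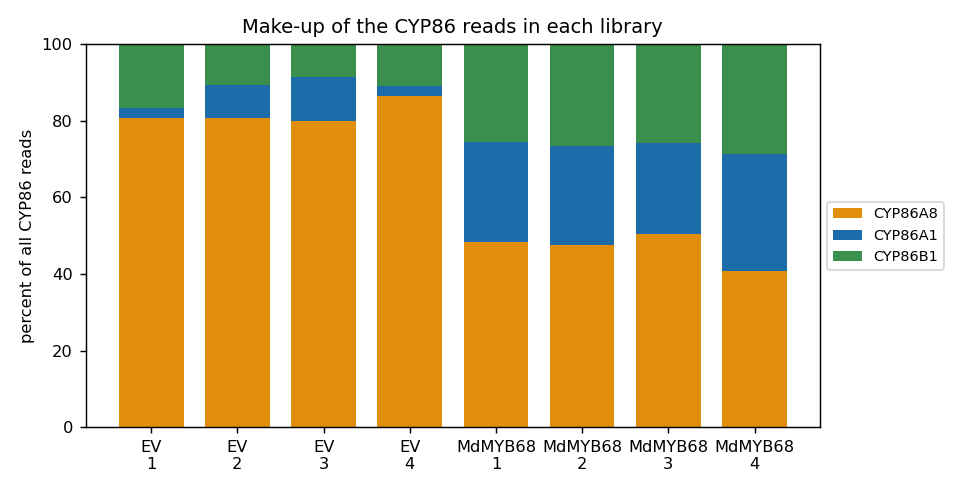
Percent of all CYP86 reads that fell on CYP86A8, CYP86A1 and CYP86B1 contigs in each library (EV, empty vector). The CYP86A8 share was 80.03 to 86.5% in the 4 empty vector libraries and 40.8 to 50.3% in the 4 MdMYB68 libraries.

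Per length and in total reads, the listed CYP86A8 contigs had the highest mean summed level in both groups. The deposited RPKM could not be used for this comparison, because the CYP86A1 and CYP86A8 contigs were all scaled to the reads on alternate transcripts and the CYP86B1 contigs to those on primary transcripts, so an RPKM on all mapped reads of a library was computed. In control leaves the summed level was 8.17 ± 1.57 for CYP86A8, 1.37 ± 0.239 for CYP86B1 and 1.24 ± 1.03 for CYP86A1 (SD, n = 4), and the last 2 overlapped. With MdMYB68 it was 130 ± 11.3 for CYP86A8, 118 ± 16.8 for CYP86A1 and 88.4 ± 6.12 for CYP86B1, of which the first 2 overlapped between libraries. CYP86B1, at 82.4 to 94.9, lay below every library value of the other subfamilies, and short partial contigs count in full in these sums.

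The MdMYB68 libraries were not all alike. MdMYB68 replicate 4 had the highest RPKM of its group in 8 of the 9 CYP86A1 contigs and in 3 of the 4 CYP86B1 contigs. It had the lowest RPKM in 4 of the 7 CYP86A8 contigs and the highest in 1. Most CYP86A1 and CYP86A8 reads also matched other contigs, so these contigs are not separate observations. How often replicate 4 was highest over all listed contigs was not counted. The CYP86A8 share of CYP86 reads was lowest in that library, 40.8%, against 47.6 to 50.3% in the other MdMYB68 libraries. No label gives this library a different treatment, and its part in the results above is in the values that leave it out. Without it the CYP86A1 to CYP86A8 difference was 3.10 and the CYP86B1 to CYP86A8 difference 1.92 on the log2 scale.

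The size of each change varied with the way libraries were scaled. When TMM factors were used, the median log2 fold change of all contigs moved from 3.34 to 0.40. That of the CYP86 contigs moved from 6.49 to 3.57. TMM factors assume that most contigs do not change, whereas the list holds only contigs selected as changed. This scaling therefore removes much of the change that the list shares and serves only as an alternative, here and for the TMM values given below. All 20 CYP86 contigs stayed positive, and 13 of them passed an adjusted p under 0.001, where 29.2% of the listed contigs were called higher. Nbv5tr6346089 was at 0.11 under this scaling (adjusted p = 0.51, edgeR), and the rest of the CYP86A8 contigs with steady controls, Nbv5tr6403888 and Nbv5tr6346087, at 1.60 and 1.69. The summed CYP86A1, CYP86A8 and CYP86B1 reads differed by 4.26, 1.03 and 3.05 on the log2 scale.

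**Figure D5:**
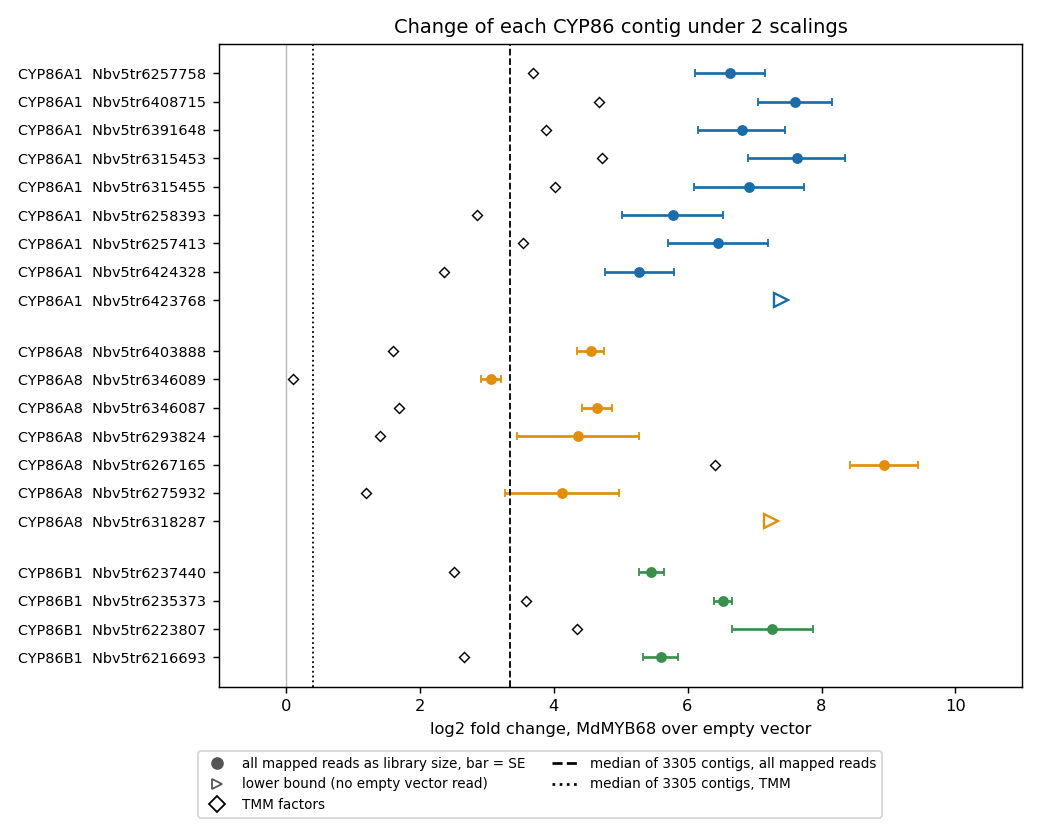
Log2 fold change of each CYP86 contig, MdMYB68 over empty vector, with all mapped reads as library size (filled points with SE bars, or open triangles for lower bounds where no control read was found) and with TMM factors (open diamonds, not drawn for the bounded contigs). The dashed and dotted lines are the medians of all 3305 contigs under each scaling, 3.34 and 0.40, and Nbv5tr6346089 at 3.06 is the only contig left of its dashed line.

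The contigs with the pattern most like each leading CYP86 contig were found by the root mean square difference of log2(RPKM + 1) over the 8 libraries, each contig centred on its own mean. Next to Nbv5tr6408715 (CYP86A1) came the unannotated Nbv5tr6427955 at 0.175, the GDSL esterase/lipase Nbv5tr6222428 at 0.192 and the unannotated Nbv5tr6235548 at 0.232. Next to Nbv5tr6403888 (CYP86A8) came Nbv5tr6222537 at 0.126, whose Arabidopsis symbol is ESK1, then Nbv5tr6294432 at 0.147 and Nbv5tr6226400 at 0.161. Next to Nbv5tr6237440 (CYP86B1) came a laccase-12 contig, Nbv5tr6223276, at 0.0944, a long-chain acyl-CoA synthetase contig with the symbol LACS4, Nbv5tr6246568, at 0.109, and the MYB93 contig Nbv5tr6235880 at 0.131. The nearest other CYP86 contig stood at rank 31, 90 and 41 of these orders, so many contigs outside the family were closer to each leading contig than its own relatives. The measure used the deposited RPKM, which is scaled differently for primary and alternate contigs. With 1 added, the measure mainly follows the MdMYB68 level where the control RPKM is low. Beside Nbv5tr6237440, with a log2 fold change of 5.46, its nearest contigs were at 7.01, 5.54 and 7.10. The likeness and the ranks on these 8 libraries thus say nothing of equal fold changes or of shared control.

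Of the other genes that act around omega-hydroxylation, 61 listed contigs fell on the pathway lists, of which 59 were called higher and 2 lower against a background of 83.4% called higher. The acyl-CoA synthetase LACS4 contig (Nbv5tr6246568), of a family that activates fatty acids, had 53 to 69 reads per library with the empty vector and 2415 to 3722 with MdMYB68, a log2 fold change of 5.54 ± 0.17 (SE). All 14 elongation contigs, of the complex that makes very-long-chain acyl chains, were called higher, with a median log2 fold change of 2.87. The most read of them, the enoyl-CoA reductase CER10 (Nbv5tr6236329), changed by 2.26 ± 0.10 (SE), and by -0.70 under TMM factors, under which 7 of these 14 stayed positive. All 3 fatty acyl-CoA reductase contigs, which make fatty alcohols, were called higher, and the most read, a CER4 contig (Nbv5tr6234363), changed by 6.67 ± 0.23 on the log2 scale (SE). Another CER4 contig, Nbv5tr6203423, changed by 2.62 but by -0.32 under TMM factors.

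Downstream of the hydroxylases, glycerol-3-phosphate acyltransferases join the acids to glycerol. Of 5 contigs on this list 4 were called higher, against 83.4% of all listed contigs. Of the GPAT5 contigs, named for an enzyme of Arabidopsis suberin, the most read (Nbv5tr6238075) changed by 2.26 ± 0.19 (SE), and by -0.68 under TMM factors. The other, Nbv5tr6232718, had 13 reads in the control libraries together and 6608 in the MdMYB68 libraries, and changed by 8.87 ± 0.25. GPAT6 (Nbv5tr6218783), an enzyme of cutin in Arabidopsis flowers, changed by 4.20 ± 0.33. The fifth, Nbv5tr6329949, is annotated as a chloroplast enzyme of the next acylation step rather than a GPAT, and had 306 reads in the control libraries together and 3 in the MdMYB68 libraries. HOTHEAD, an oxidoreductase linked to the oxidation of omega-hydroxy acids in Arabidopsis, was also lower. Its contig Nbv5tr6199277 had 1774 to 2231 reads per library with the empty vector and 465 to 580 with MdMYB68, and fell by 2.02 on the log2 scale.

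The later steps moved in the same direction as the CYP86 contigs, beside 83.4% of all listed contigs called higher. All 5 omega-hydroxypalmitate O-feruloyl transferase contigs were called higher, with 4.88 ± 0.15 (SE) for the most read, Nbv5tr6212895. All 15 half-size ABCG transporter contigs were called higher, a family that exports polyester precursors, with 7.77 ± 0.35 for Nbv5tr6236478. All 6 contigs of the GDSL lipases AT1G74460, AT2G23540 and AT5G37690 were called higher, with 9.44 ± 0.21 for Nbv5tr6222730. All 11 contigs of suberin-related MYB factors were called higher, with 11.40 ± 0.21 for the MYB84 contig Nbv5tr6218132. How reads of the infiltrated MYB gene were placed on such contigs was not tested. Outside the CYP86 contigs, no contig was found for the lists of other fatty acid cytochrome P450 families and of P450 reductases. Nbv5tr6223807 and Nbv5tr6216693, with the symbol CYP96A10, were counted with CYP86B1 and left out of these lists.

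Markers of other cell types were read beside these results. All 10 Casparian strip membrane protein contigs, markers of the root endodermis, were called higher, against 83.4% of all listed contigs, and their sum went from 0.434 to 1.22 up to 1138 to 1373 RPM. Of 2 contigs with the epidermal symbol PDF1, Nbv5tr6243655 changed by 2.62 (-0.34 under TMM factors) and Nbv5tr6239806 by -2.19 on the log2 scale, and their sum overlapped between the groups. The part of these shifts, and of the lower mesophyll markers, in the CYP86 values was not tested.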

How the data were processed

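RNA of 8 leaf libraries was sequenced as 75 base-pair paired-end reads. In CLC Genomics Workbench the authors trimmed the reads and mapped them to the primary and alternate transcripts of the N. benthamiana transcriptome, version 5. The deposited table gives counts of total and of uniquely placed reads per contig, without normalization, and the RPKM computed by the authors on the reads of the contig's own transcript set. It also holds columns with the authors' mean RPKM, fold change and difference (each a score), and p-value and FDR, none of which were used. The number of columns of other samples was 0.

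Mapped totals were recovered from the deposited RPKM (largest relative deviation 3.1e-08) and used as library size with normalization factors of 1. Counts were tested with edgeR 4.0.16 (R 4.3.3), quasi-likelihood, no covariates, Benjamini-Hochberg over 3305 contigs at 0.001. A standard error is the log2 fold change over the square root of F, and with few reads can be smaller than the counting error. Sums and ratios (0.5 reads added) were compared by two-sided exact permutation (scipy 1.17.1). Counts were simulated for the 3305 contigs around their means over all 8 libraries, with 200 contigs changed. In these edgeR recovered 57 of 64 contigs changed 16-fold, 43 of 72 changed 4-fold and 9 of 64 changed 2-fold, with 0 false calls. Those means lie above the control levels of contigs higher with MdMYB68, and far fewer contigs changed than were called in the data. Intervals and floors cover counting error only. Named contigs are the 20 members, the 3 nearest contigs to the most read contig of each symbol, and the most read contig of each pathway list. GPAT6, Nbv5tr6232718, Nbv5tr6203423, Nbv5tr6329949 and the PDF1 contigs were added after their values were seen. The members and lists were chosen with earlier results of these data known. Other settings were DESeq2 1.42.0 (own or fixed size factors), TMM factors, uniquely placed reads only, the total of the contig's transcript set, limma 3.58.1 with 1 or 0.1 added to the RPKM before log2, at least 10 reads on average, 0.05 as threshold, members with a symbol only, the replicate number as a block, and each library left out in turn. Contigs outside the list were not analysed here.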

Additional observations from a re-analysis of the deposited data

Results flagged for a closer look

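In the 50 groups of 4 libraries examined, 6 had a library far from the other libraries of its group by Dixon's test at 95%. A group where only a single library has reads is flagged whatever its value. This was so for Nbv5tr6315453, Nbv5tr6315455 and Nbv5tr6267165, so the number of flags cannot be set against a chance rate. With MdMYB68, replicate 4 stood out for Nbv5tr6408715 (CYP86A1), at a deposited RPKM of 103.6 against 83.9 to 86.7, and for Nbv5tr6216693 (annotated CYP86B1), at 13.8, with 637 reads against 481 to 536. With the empty vector, replicate 2 stood out for 3 contigs that were otherwise almost unread, with a deposited RPKM of 1.42 for Nbv5tr6315455 and 0.156 for Nbv5tr6267165, both against 0, and of 2.92 for Nbv5tr6257413 against 0 to 0.482. Replicate 3 stood out for Nbv5tr6315453, at 1.20 against 0. The flags of Nbv5tr6315453 and Nbv5tr6315455 concern contigs of equal length without uniquely placed reads, in different control libraries.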

How the results depend on the processing

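No CYP86 contig changed direction under any alternative. TMM factors and DESeq2's own size factors both remove much of the change that the selected list shares. Of 3305 contigs 3168 were called (87.0% of the calls higher), against 1576 with TMM factors (61.2% higher) and 1977 with DESeq2 and its own size factors (62.1% higher), and of the 20 CYP86 contigs 13 and 15. Uniquely placed reads gave 16 calls of 18 CYP86 contigs tested, DESeq2 with fixed size factors and limma with 0.1 added 19, and the other transcript total, limma with 1 added and the read minimum 20. Leaving out each library gave 3078 to 3158 calls, 18 to 20 of them CYP86 contigs, and log2 differences of 6.77 to 7.66 (CYP86A1 sum), 3.86 to 4.08 (CYP86A8), 5.92 to 6.08 (CYP86B1), 2.87 to 3.64 (CYP86A1 to CYP86A8), 1.90 to 2.21 (CYP86B1 to CYP86A8) and 0.71 to 1.74 (CYP86A1 to CYP86B1). The replicate numbers did not pair the libraries (correlations of deviations of -0.069 to -0.005). With the replicate block 2615 contigs and 15 CYP86 contigs were called, and the differences of 7.21, 3.98, 6.0, 3.23 and 2.02 had p = 0.125 in an exact sign-flip permutation test, the smallest p that 4 pairs allow. Depth limited the contigs with control libraries at 0, whose fold changes depend on the floor, and sharing of reads limited CYP86A1 and CYP86A8.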
